A study of Mus musculus with 8 samples.

Results

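The comparison described here is between cells of the gastrulating mouse embryo that were negative for a Mesp1 reporter at embryonic day (E) 7.5 and at E6.5. It used the 4 GFP- arrays of a series of 8, which are all the arrays labelled GFP- at these stages, 2 at each stage. Gene expression was measured on Affymetrix mouse arrays in RNA from 50 sorted cells per array, amplified over 25 PCR cycles. All embryos, those of the controls included, were of the genotype Mesp1-rtTA/Teto-H2B-GFP. In this system a Mesp1-driven transactivator switches on a fluorescent histone, so that GFP reports the Mesp1-driven transgene, which need not match every cell that transcribes Mesp1. A doxycycline treatment, strain and number of embryos are not given in the sources used here. Nor is it given whether extraembryonic tissue was kept in the dissection. The other 4 arrays held GFP+ cells of the same stages. The labels call arrays 1 and 2 of each group biological replicates, without saying whether a number stands for shared embryos or a shared litter. The p-values measure the spread between these arrays only. The GFP- gate takes every living cell without the reporter, so each array is a mixture whose makeup can differ between stages. In such a mixture, fewer cells of a type and less RNA per cell cannot be told apart.

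In the mouse, E6.5 is the start of gastrulation. Cells of the epiblast, a pluripotent epithelium, converge on the primitive streak, lose their epithelial contacts and emerge as mesoderm or definitive endoderm. Mesp1 encodes a transcription factor that is switched on briefly in the earliest mesoderm, which includes the progenitors of the heart. Over the following day the streak goes on to supply lateral, extraembryonic and then paraxial mesoderm, Hox genes come on in order from anterior to posterior paralogues, and embryonic blood starts to form in the yolk sac.

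Expression values are on the log2 scale, where a difference of 1 is a doubling. A value of 4.38, the median of all deposited values, served as the filter on low values. A level below it is treated as low and not ordered further, and the size of a change from such a level is uncertain. A gene rose or fell when the Benjamini-Hochberg adjusted p of limma over all genes tested was under 0.05, in a fit of all 8 arrays that takes the difference within each replicate number. Of 11706 genes tested, 39 (0.333%) passed. There were 29 (0.248%) that rose from E6.5 to E7.5 and 10 (0.0854%) that fell. A further description, without a test, is the count of genes that differed by at least 1 in the same direction within both replicate numbers. It held 222 genes higher at E7.5 (1.9%) and 161 lower (1.38%). The median difference over all genes was -0.01. The mean was higher at E7.5 for 5719 of the 11706 genes and lower for 5987, which is the background for such counts in the lists below. In all 39 genes that passed, the arrays of both stages did not overlap, but this alone is common. Both E7.5 arrays lay above both E6.5 arrays for 13.1% of all genes and below both for 13.6%. The gene lists described below held more members than were tested, since a gene needed a named probe set above the filter value on at least 2 of the 8 arrays: 18 of 22 epiblast genes were tested, 20 of 23 of the streak, 13 of 17 of paraxial mesoderm, 19 of 22 of lateral and extraembryonic mesoderm, 23 of 28 of visceral endoderm, 13 of 20 of erythroid cells and 17 of 36 Hox genes. The number of arrays limits these calls. The fit without the replicate number as a block called 11 genes (0.094% of those tested), all among the 39. With all the GFP+ arrays kept, leaving out the GFP- E6.5 array of replicate 1, or either GFP- E7.5 array, left 0 genes past the threshold, and leaving out the GFP- E6.5 array of replicate 2 left 2, Aplnr and Hoxb1. Leaving out a GFP+ array of E6.5 left 6, and one of E7.5 left 11. No gene among the 39 changed sign in any of these fits, but the 39 were picked by this same difference. Leaving out the block or a GFP+ array does not alter the difference itself.

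**Figure D1:**
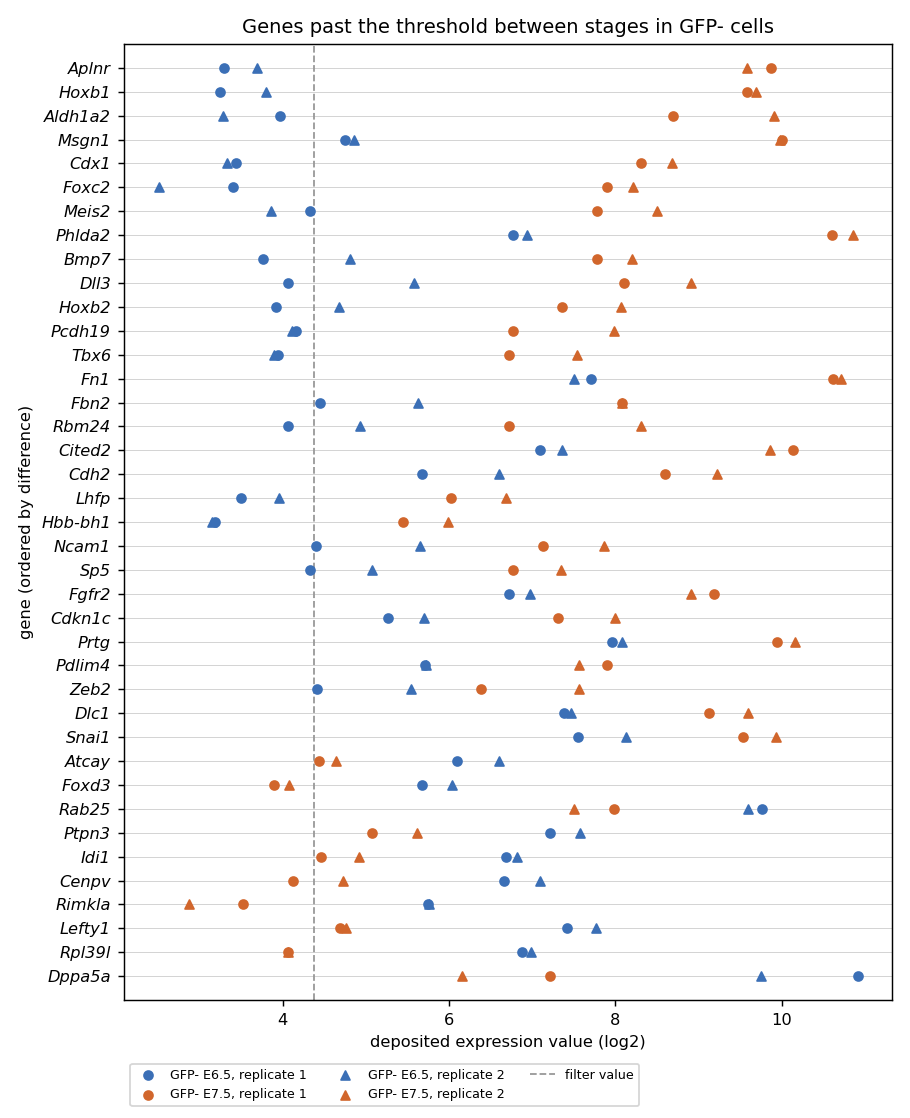
Deposited expression value (log2, horizontal axis) of the 39 genes that passed the test, in each of the 4 GFP- arrays. Each row is a gene, ordered by its difference, blue marks are E6.5 and orange marks E7.5, circles are replicate 1 and triangles replicate 2, and the dashed line is the filter value of 4.38. Aplnr and Hoxb1 start left of the line at E6.5 and end between 9.58 and 9.86 at E7.5, and Dppa5a at the bottom goes from 10.91 and 9.75 to 7.22 and 6.16.

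**Figure D2:**
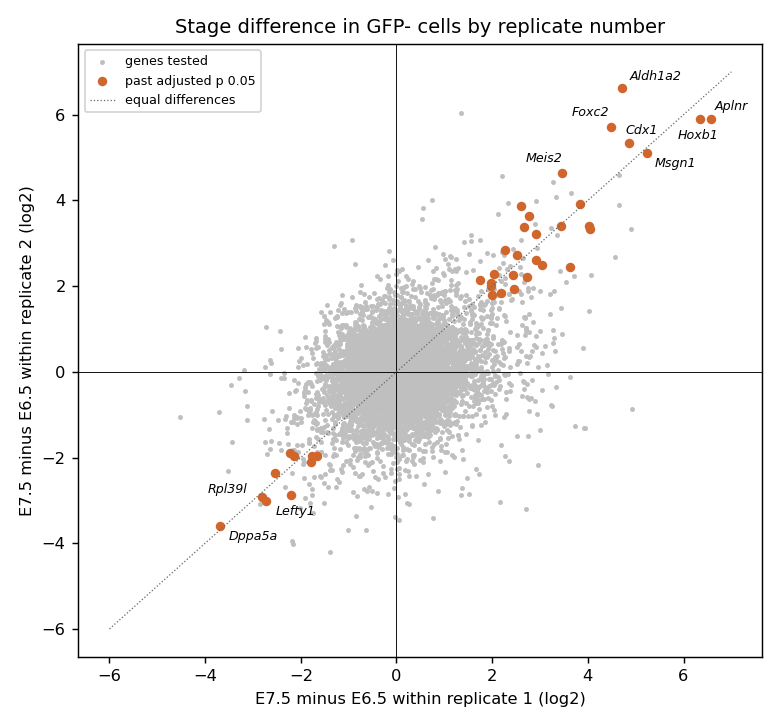
Difference between stages (E7.5 minus E6.5, log2) in GFP- cells within replicate 1 (horizontal axis) and within replicate 2 (vertical axis) for all 11706 genes. Grey points are genes tested, orange points the 39 that passed, and the dotted line marks equal differences. The orange points follow that line from Dppa5a at -3.69 and -3.60 to Aplnr at 6.57 and 5.89, with Aldh1a2 (4.72 and 6.63) farther off it.

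Mesp1 itself, the gene whose regulatory sequence drives the reporter, was measured at 5.64 and 6.26 in the E6.5 GFP- arrays and at 7.76 and 8.06 in the E7.5 GFP- arrays. The groups did not overlap, and the difference was 1.96 (SE 0.23), just outside the threshold (limma adjusted p = 0.0512). In GFP+ cells it stood at 9.75 and 10.03 at E6.5 and at 8.75 and 8.65 at E7.5, above the GFP- arrays of the same stage in each case. All 4 GFP- values were above the filter value. At the edge of the threshold, the last genes inside were Fbn2, Pdlim4 and Ptpn3 (adjusted p of 0.0441, 0.0447 and 0.0458). Just outside lay Cacna1b and Chst2 (0.0503 for both), Mesp1, and then Ifitm1 and Ccnd2 (0.0516 for both).

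The genes of paraxial and presomitic mesoderm, which later segments into somites, included 4 that rose in GFP- cells. Msgn1, a bHLH factor of the presomitic mesoderm, stood at 4.75 and 4.86 at E6.5 and at 10.00 and 9.98 at E7.5. It rose by 5.18 (SE 0.22, adjusted p = 0.00307), a 36.3-fold change. Foxc2, a forkhead factor of paraxial mesoderm and vessels, was at 3.41 and 2.51 and then at 7.90 and 8.22. Its rise of 5.10 (SE 0.46, adjusted p = 0.0286) started from a level below the filter value. Dll3, a Notch ligand of the presomitic mesoderm, went from 4.06 and 5.58 to 8.10 and 8.90, a rise of 3.68 (SE 0.26, adjusted p = 0.0207). Tbx6, a T-box factor needed for paraxial fate, was low at E6.5 (3.95 and 3.90), reached 6.72 and 7.54, and rose by 3.20 (SE 0.32, adjusted p = 0.0317). Of the 13 paraxial mesoderm genes tested, these 4 rose and 0 fell, 7 were at least 1 higher within both replicate numbers, and the median difference of the list was 1.84. Dll1, the Notch ligand expressed beside Dll3, had a difference of 1.84 (SE 0.30) that did not pass (adjusted p = 0.0938). In the Notch pathway list as a whole 1 of 16 genes rose, Dll3, and 0 fell. Notch1 differed by 1.56 and Dtx1, a regulator of Notch signals, by -1.86, neither past the threshold.

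The primitive streak list, of genes that mark the streak and the mesoderm leaving it, held 20 tested genes, of which 4 rose and 0 fell. Its median difference was 0.93. Aplnr, the apelin receptor carried by nascent mesoderm, had the largest rise of the genes that passed. It stood at 3.29 and 3.69 in the E6.5 arrays and at 9.86 and 9.58 in the E7.5 arrays, a rise of 6.23 (SE 0.24, adjusted p = 0.00307). The E6.5 level was below the filter value, and a second probe set of Aplnr gave a smaller difference of 2.54. Cdx1, a caudal homeobox factor of posterior identity, went from 3.44 and 3.33 to 8.30 and 8.68 and rose by 5.10 (SE 0.30, adjusted p = 0.00919). Sp5, a zinc-finger factor that responds to Wnt signals in the streak, went from 4.33 and 5.08 to 6.77 and 7.35 and rose by 2.35 (SE 0.23, adjusted p = 0.0317). Snai1, the repressor of E-cadherin that acts as cells leave the epithelium, went from 7.54 and 8.12 to 9.54 and 9.93 and rose by 1.9 (SE 0.18, adjusted p = 0.0313). Not every streak gene moved upwards. Eomes, a T-box factor of the early streak, was at 9.17 and 9.34 at E6.5 and at 7.58 and 6.89 at E7.5, lower by 2.02 without passing (adjusted p = 0.126). Fgf3, a ligand of the late streak, was instead 3.13 higher at E7.5 (SE 0.61) and also did not pass (adjusted p = 0.135).

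The genes Msgn1 and Sp5, with Hoxb1, are shown with the bases that precede their RefSeq start sites, because the letters before them hold motifs of the factors of Wnt signalling or of Hox proteins. Coordinates are of GRCm38.p6, the build of the RefSeq table, and each run is 250 bases long, 5′ to 3′ on the gene's strand. Msgn1 lies on the minus strand (chr12:11208949-11209198), and Sp5 (chr2:70474673-70474922) and Hoxb1 (chr11:96365508-96365757) on the plus strand. Capitals mark letters that match a searched motif on either strand.
Msgn1: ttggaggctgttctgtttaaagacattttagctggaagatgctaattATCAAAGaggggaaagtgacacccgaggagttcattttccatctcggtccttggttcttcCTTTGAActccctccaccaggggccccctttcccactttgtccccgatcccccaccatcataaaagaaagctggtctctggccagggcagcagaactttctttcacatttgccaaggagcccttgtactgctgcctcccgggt
Sp5: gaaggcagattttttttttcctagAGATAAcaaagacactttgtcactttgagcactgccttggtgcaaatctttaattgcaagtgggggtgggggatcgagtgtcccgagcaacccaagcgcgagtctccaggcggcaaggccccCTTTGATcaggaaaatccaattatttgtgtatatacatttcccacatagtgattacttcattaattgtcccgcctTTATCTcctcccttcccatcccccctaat
Hoxb1: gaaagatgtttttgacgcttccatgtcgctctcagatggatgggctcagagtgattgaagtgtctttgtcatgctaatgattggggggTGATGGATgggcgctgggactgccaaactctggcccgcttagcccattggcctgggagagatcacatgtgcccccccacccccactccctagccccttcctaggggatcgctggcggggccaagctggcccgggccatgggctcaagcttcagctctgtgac
The motif of the LEF and TCF proteins, through which Wnt signals act, was searched as CTTTGAT and in a further form as CTTTGAA. The motif TGATNNAT stands for PBX-HOX pairs, AGATAA for GATA factors, and AGGTGTGA for T-box factors. The octamer ATGCAAAT is bound by POU factors, and the E-box letters CAGGTG are a site of Snail and Zeb factors. The letters AGGTG are common to the T-box and E-box motifs, and both forms of the LEF and TCF motif share all letters but the last. Windows of 250 bases before to 50 after the start were searched for 12042 start sites of the genes tested, which cover 17 of the genes that rose and 7 of those that fell. The Msgn1 window held CTTTGAT with its first base at -203 and CTTTGAA at -143, counted from the start site. Sp5 held CTTTGAT at -104 and AGATAA at -226 and at -29. CTTTGAT occurred in 2.73% of all windows, CTTTGAA in 3.58% and AGATAA in 6.45%. Hoxb1 held TGATNNAT at -162, a motif found in 4.24% of windows and also in those of Fgfr2, Tbx6 and, among genes that fell, Foxd3. CAGGTG was in the windows of 5 genes that rose (Aldh1a2, Dll3, Prtg, Rbm24 and Snai1) and 3 that fell (Cenpv, Ptpn3 and Rab25), against 19.2% of all windows. ATGCAAAT was in that of Aldh1a2 alone among these genes (1.22% of windows), and AGGTGTGA in none of them (0.997%). These matches describe letters and not bound sites.

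Anterior Hox genes, their cofactor and the enzyme that makes retinoic acid rose over the same day. Hoxb1 stood at 3.24 and 3.80 at E6.5 and at 9.58 and 9.69 at E7.5, a rise of 6.11 (SE 0.25, adjusted p = 0.00307). Hoxb2 went from 3.92 and 4.68 to 7.35 and 8.07, a rise of 3.42 (SE 0.20, adjusted p = 0.00919). The E6.5 means of both were below the filter value. Of 17 Hox genes tested, these 2 rose, 0 fell, 13 had a higher mean at E7.5, 3 were at least 1 higher within both replicate numbers, and the median difference was 0.25. Hoxa3 went from 4.15 and 4.07 to 7.5 and 7.27, a difference of 3.27 that did not pass (adjusted p = 0.0745). With the mean of its kept probe sets Hoxa3 differed by 2.06 and passed (adjusted p = 0.0376). Its other probe sets, on low levels, differed by only 0.84, 0.16 and 0.41. Meis2, a homeobox cofactor of Hox proteins, went from 4.33 and 3.87 to 7.78 and 8.51 and rose by 4.05 (SE 0.31, adjusted p = 0.0251). With the mean of all kept probe sets Meis2 differed by 2.70 and did not pass (adjusted p = 0.0512). Aldh1a2, which converts retinaldehyde into retinoic acid, went from 3.97 and 3.28 to 8.69 and 9.91 and rose by 5.68 (SE 0.55, adjusted p = 0.0317). It was the only one of 16 retinoic acid genes to pass. Crabp1, a cytoplasmic binding protein for retinoic acid, went from 7.16 and 6.53 to 10.05 and 9.99 and was 3.18 higher without passing (adjusted p = 0.0634). The list median was 0.13.

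Genes of the mesenchymal state and of the matrix rose alongside. Of 17 mesenchymal genes tested, 4 rose, 0 fell and 11 were at least 1 higher within both replicate numbers, with a median difference of 1.86. Fn1, which encodes the matrix protein fibronectin, stood at 7.70 and 7.5 and then at 10.61 and 10.71, a rise of 3.06 (SE 0.19, adjusted p = 0.00978). Cdh2, or N-cadherin, went from 5.68 and 6.60 to 8.59 and 9.22 and rose by 2.77 (SE 0.30, adjusted p = 0.0417), while with the mean of all kept probe sets Cdh2 differed by 2.02 and did not pass (adjusted p = 0.0909). Zeb2, a repressor of epithelial genes, went from 4.41 and 5.55 to 6.39 and 7.56 and rose by 2.0 (SE 0.17, adjusted p = 0.0279). Its replicates were more than 1 apart at each stage while the differences within them were nearly equal (1.98 and 2.01), and without the replicate block its adjusted p was 0.584. Snai1 was the fourth. Vim, the intermediate filament vimentin, and Twist1, a bHLH factor of mesenchyme, were 2.48 and 2.17 higher and did not pass (adjusted p = 0.0584 and 0.0745). In the matrix list 2 of 20 genes rose, Fn1 and Fbn2, the latter a fibrillin that went from 4.45 and 5.62 to 8.08 in both arrays. Vcan, a matrix proteoglycan, was 2.98 higher and Itga6, an integrin chain that binds laminin, 2.79 lower, neither past the threshold.

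Of 22 epithelial genes tested, 0 rose and 0 fell, although 16 had lower means at E7.5, 6 were at least 1 lower within both replicate numbers and the median difference was -0.61. Cldn7, a tight junction protein, stood at 9.69 and 10.19 and then at 8.38 and 8.27 (difference -1.62, adjusted p = 0.0825). Ap1m2, an epithelial sorting adaptor, differed by -1.64 (adjusted p = 0.0605), Esrp1, an epithelial splicing factor, by -2.42 (0.272) and Grhl2, an epithelial transcription factor, by -1.67 (0.126). Cdh1, or E-cadherin, was at 8.02 and 8.29 and then at 6.99 in both arrays, lower by 1.16 without passing (adjusted p = 0.165). Rab25, a small GTPase of epithelial recycling that was not in the list, went from 9.76 and 9.60 to 7.98 and 7.5 and fell by 1.94 (SE 0.19, adjusted p = 0.0317).

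**Figure D3:**
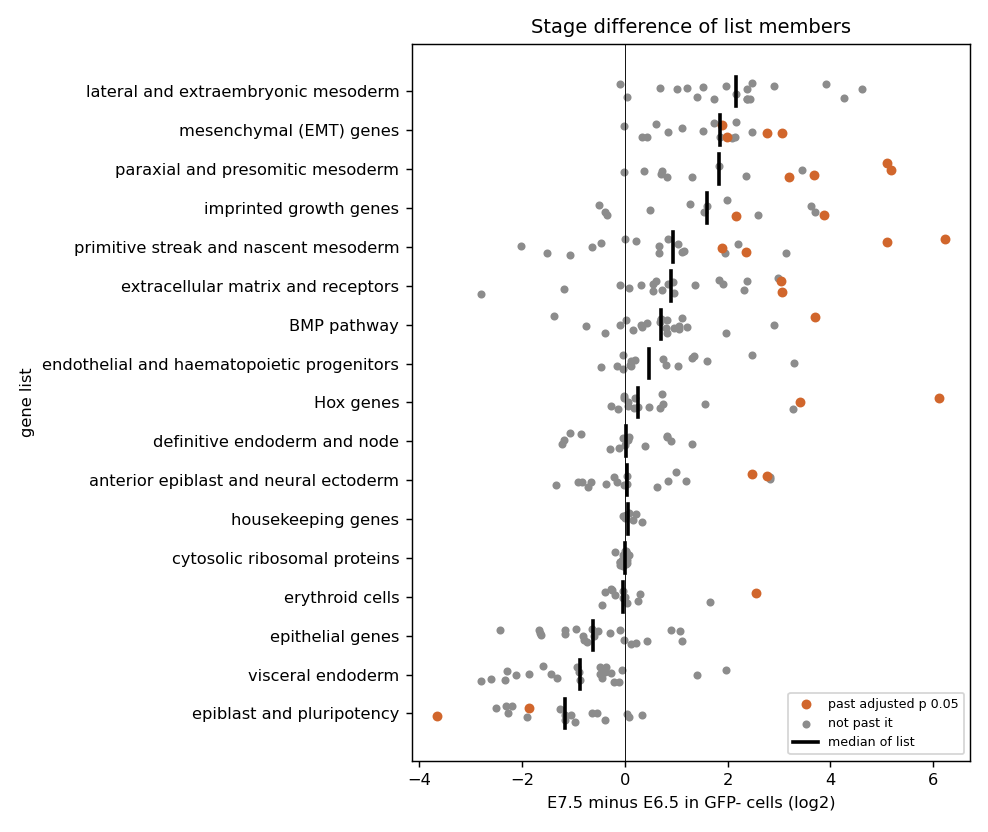
Stage difference in GFP- cells (E7.5 minus E6.5, log2, horizontal axis) of every tested member of 17 gene lists (vertical axis, ordered by list). Each point is a gene, orange where it passed adjusted p 0.05 and grey where it did not, and the black bar is the list median. Medians run from 2.17 for lateral and extraembryonic mesoderm to -1.16 for epiblast and pluripotency, and the ribosomal and housekeeping lists lie close to 0.

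Epiblast and pluripotency genes went the other way. Of 18 tested, 0 rose and 2 fell, 15 had a lower mean at E7.5, 9 were at least 1 lower within both replicate numbers, and the median difference was -1.16. Dppa5a, an RNA-binding protein of pluripotent cells, stood at 10.91 and 9.75 at E6.5 and at 7.22 and 6.16 at E7.5. It fell by 3.64 (SE 0.20, adjusted p = 0.00919), the largest fall of the genes that passed. Its replicates were more than 1 apart at both stages, the groups did not overlap, and without the replicate block the adjusted p was 0.124. Foxd3, a forkhead factor that maintains pluripotency, went from 5.67 and 6.04 to 3.90 and 4.08, below the filter value, and fell by 1.87 (SE 0.17, adjusted p = 0.0304). Only its GFP- E6.5 arrays were above that value, so Foxd3 entered the test through the group where it was high. The Foxd3 call is therefore no support for the list. Nanog, a core pluripotency factor, was at 7.78 and 8.11 and then at 5.07 and 6.19, lower by 2.31 without passing (adjusted p = 0.0823). Fgf5, a ligand that marks the primed epiblast, was at 9.06 and 8.19 and then at 6.73 and 5.51, lower by 2.51 (adjusted p = 0.0634). Pou5f1, the pluripotency factor also called Oct4, was still high at E7.5 (10.40 and 10.61, against 11.12 and 10.98 at E6.5). Utf1, another epiblast marker, was at 11.00 and 10.93 and then at 8.26 and 9.29 (adjusted p = 0.2). The E6.5 arrays thus carried the defining epiblast markers, and the E7.5 arrays kept some of them.

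**Figure D4:**
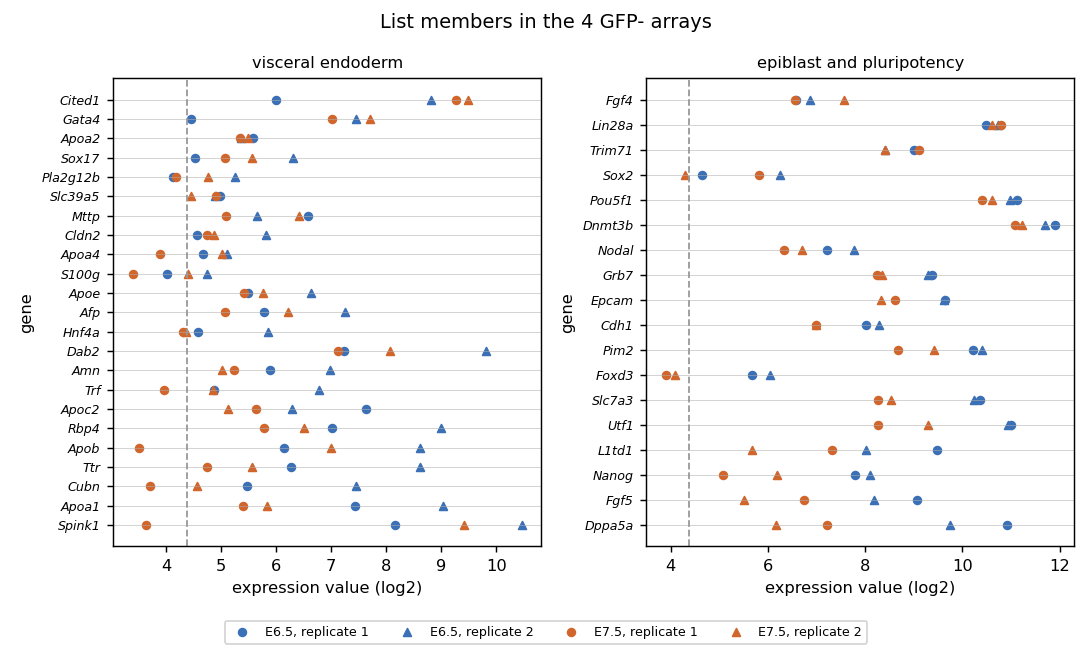
Expression value (log2, horizontal axes) of the 23 tested visceral endoderm genes (left) and the 18 tested epiblast genes (right) in the 4 GFP- arrays. Blue marks are E6.5 and orange E7.5, circles are replicate 1 and triangles replicate 2, and the dashed line is the filter value. Epiblast genes such as Utf1 and Nanog separate by stage, while visceral endoderm genes such as Spink1 and Ttr are higher in replicate 2 at each stage.

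Within the Nodal pathway, which patterns the epiblast and induces the streak, 1 of 15 genes fell and 0 rose, and the median difference was 0.21. Lefty1, a secreted antagonist of Nodal, went from 7.42 and 7.77 to 4.69 and 4.77 and fell by 2.86 (SE 0.28, adjusted p = 0.0313). Nodal itself was at 7.21 and 7.76 and then at 6.34 and 6.70, lower by 0.97 (adjusted p = 0.313), and a second probe set of Nodal differed by -2.23. Lefty2, the other Lefty antagonist, was 0.84 higher and Cfc1, a Nodal co-receptor, 1.59 higher, neither past the threshold. Other genes that fell belonged to no list. Rpl39l, a paralogue of a ribosomal protein gene, went from 6.88 and 6.99 to 4.07 in both arrays, a fall of 2.87 (SE 0.24, adjusted p = 0.0279). The others that fell were Idi1, an isomerase of cholesterol synthesis (difference -2.07), Cenpv, a centromere protein (-2.45), Ptpn3, a tyrosine phosphatase (-2.05), Rimkla, which makes a dipeptide of neural tissue (-2.55), and Atcay, or caytaxin (-1.81), with adjusted p from 0.0279 to 0.0458. Levels of Rimkla at E7.5 (3.53 and 2.87) lay below the filter value. Only its GFP- E6.5 arrays were above it, so Rimkla also entered the test through the group where it was high. Another probe set of Atcay was 0.41 higher at E7.5, on a low level.

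Lateral and extraembryonic mesoderm had the highest median of the lists described here, 2.17 over 19 genes, yet 0 of its genes rose or fell in the test. There were 18 genes with a higher mean at E7.5 and 11 at least 1 higher within both replicate numbers. Hand1, a bHLH factor of extraembryonic mesoderm and early heart, was at 5.40 and 5.79 and then at 10.05 and 9.68 (difference 4.27, SE 0.97, adjusted p = 0.179). Foxf1, a forkhead factor of lateral mesoderm, was at 3.88 and 4.95 and then at 8.54 and 9.53 (4.62, SE 0.79, adjusted p = 0.109). Pmp22, a membrane protein, was 3.91 higher (adjusted p = 0.11) and Bmp5, a BMP ligand, 2.91 higher (0.0758). The GFP- groups did not overlap for these 4 genes, as for 13.1% of all genes. Other probe sets of Hand1 and Foxf1 gave 2.92 and 2.55. The spread in the test comes from all 8 arrays, and what kept these genes from passing was not tested. In the GFP+ arrays Foxf1 at E6.5 was 4.03 and 7.72 and Hand1 at E7.5 was 10.33 and 7.92. With only the 4 GFP- arrays and the replicate block in the fit, 0 of all 11706 genes passed.

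Among erythroid genes 1 globin passed. Hbb-bh1, an embryonic beta-like globin of primitive red cells, was at 3.19 and 3.16 at E6.5 and at 5.45 and 5.99 at E7.5, and rose by 2.55 (SE 0.22, adjusted p = 0.0279). In GFP+ cells it stayed between 3.11 and 3.47 at both stages, below the filter value. Only its GFP- E7.5 arrays were above the filter value, so it entered the test through the group where it was high. Its call is therefore no support for the list. It was the only one of 13 erythroid genes tested to pass, and the list median was -0.03. The other embryonic globins Hbb-y and Hba-x and the red cell genes Klf1 and Hemgn did not reach the filter. Gata1, the master factor of red cells, was at 4.0 and 4.64 and then at 7.16 and 4.8, high in 1 of the E7.5 arrays only. Of 16 endothelial and haematopoietic progenitor genes, 0 passed and the median difference was 0.48. Kdr, the VEGF receptor of their common precursors, was at 4.31 and 5.11 and then at 7.55 and 8.47 (3.30, SE 0.84, adjusted p = 0.222). Lmo2, a blood and vessel cofactor, and Gata2, a factor of blood progenitors, were 2.47 and 1.61 higher, and Fli1, a factor of endothelium, 1.35 higher, none past the threshold.

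Among signalling ligands and receptors, Bmp7, a BMP ligand, went from 3.76 and 4.81 to 7.78 and 8.21 and rose by 3.71 (SE 0.30, adjusted p = 0.0279). Its mean over all kept probe sets rose less, by 2.42. It was the only one of 23 BMP pathway genes to pass, and their median difference was 0.70. Bmp4, a ligand of extraembryonic tissue and posterior mesoderm, was 1.97 higher (adjusted p = 0.281) and Smad7, an inhibitor of the pathway, 1.37 lower (0.403). In the FGF list 1 of 22 genes rose and 0 fell, and the median difference was -0.23. A lower mean at E7.5 was found for 12 of the 22, near the share of all genes (5987 of 11706). There were 5 genes at least 1 higher and 4 at least 1 lower within both replicate numbers. Among the latter was Fgf5, given above. Fgf8, a ligand of the streak, was at 8.07 and 8.98 and then at 7.10 and 6.93 (adjusted p = 0.207). It fell just short of a difference of 1 within replicate 1. The gene that rose was Fgfr2, a receptor that went from 6.72 and 6.97 to 9.18 and 8.91 and rose by 2.20 (SE 0.21, adjusted p = 0.0304), while a low probe set of the gene differed by -0.25, and with the mean of all kept probe sets Fgfr2 did not pass (adjusted p = 0.0855). Spred1, an inhibitor of the pathway, was 2.02 higher (adjusted p = 0.148). In the Wnt list 1 of 26 genes rose, Sp5. Rspo3, a secreted enhancer of Wnt signals, and Lgr5, its receptor, were 2.35 and 2.64 higher from levels below the filter value, and Fzd5, a Wnt receptor, was 2.35 lower, none past the threshold (adjusted p = 0.0745, 0.179 and 0.25).

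Imprinted growth genes, which are expressed from the maternal or the paternal copy only, had a median difference of 1.59 over 13 genes. Of these 2 rose, 0 fell and 8 were at least 1 higher within both replicate numbers. Phlda2, a maternally expressed gene that restrains placental growth, went from 6.77 and 6.94 to 10.61 and 10.86 and rose by 3.88 (SE 0.40, adjusted p = 0.0344). Cdkn1c, a maternally expressed inhibitor of the cell cycle, went from 5.26 and 5.70 to 7.31 and 7.99 and rose by 2.17 (SE 0.19, adjusted p = 0.0286). Dlk1, a paternally expressed relative of the Notch ligands, was at 4.57 and 6.05 and then at 9.15 and 8.73 (3.63, adjusted p = 0.0571). Plagl1, an imprinted zinc-finger factor, was 1.34 higher within replicate 1 and 6.04 higher within replicate 2. In the cell cycle list Cdkn1c alone passed among 30 genes, and Ccnd2, a cyclin of the G1 phase, was 2.89 higher (adjusted p = 0.0516). The list median was -0.07.

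Neural and surface ectoderm showed no common direction. Among 19 anterior epiblast and neural genes 2 rose, 0 fell and the median was 0.04. These were Cdh2 and Ncam1, adhesion molecules that mesoderm also carries. Ncam1 went from 4.41 and 5.65 to 7.13 and 7.87, a rise of 2.47 (SE 0.25, adjusted p = 0.0341). With the mean of all its kept probe sets the difference was 1.46 and did not pass (adjusted p = 0.0563), and without the replicate block its adjusted p was 0.448. Otx2, a homeobox factor of the anterior epiblast, was at 9.17 and 9.60 and then at 7.72 and 8.36 (adjusted p = 0.114). Gbx2 and Irx3, homeobox factors of more posterior neural tissue, were 2.83 and 2.82 higher (adjusted p = 0.11 and 0.0911). Of 12 surface ectoderm genes 0 passed, with a median of 0.12. Tfap2a, a factor of surface ectoderm, was at 5.18 and 5.46 and then at 6.95 and 7.35 (adjusted p = 0.202), and Krt8, a keratin of simple epithelia, was 1.08 higher.

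Markers of other tissues that the GFP- gate could hold were checked beside these results. Of 23 visceral endoderm genes 0 passed, 21 had a lower mean at E7.5, 7 were at least 1 lower within both replicate numbers, and the median difference was -0.86. The mean level over the list was 5.71 and 7.05 in the E6.5 arrays and 5.06 and 5.93 in the E7.5 arrays, so that replicate 2 was higher at each stage. Apoa1, an apolipoprotein, was at 7.42 and 9.02 and then at 5.40 and 5.84 (adjusted p = 0.123). Ttr, a carrier of thyroid hormone, was at 6.26 and 8.61 and then at 4.75 and 5.55, Cubn, an uptake receptor, at 5.47 and 7.44 and then at 3.70 and 4.56, and Rbp4, the carrier of retinol, at 7.02 and 9.0 and then at 5.78 and 6.5. Second probe sets of Apoa1, Ttr and Cubn differed by -2.05, -4.47 and -3.88. Spink1, a secreted inhibitor, was at 8.16 and 10.46 and then at 3.64 and 9.41, so 1 of the E7.5 arrays was as high as the E6.5 arrays. The part of visceral endoderm content in the epithelial and epiblast values was not tested. Of 16 definitive endoderm and node genes 0 passed, and the median was 0.02. Trh, a hormone precursor in this list, differed by -1.22 (adjusted p = 0.442). Among 21 extraembryonic ectoderm and trophoblast genes 1 passed, Fgfr2, which other tissues also express, and the median was 0.41, with 0.86 within replicate 1 and -0.10 within replicate 2. At E7.5, 8 of the 21 genes were higher in replicate 2 than in replicate 1, against 7153 of all 11706 genes. By at least 1, 2 of the 21 were higher (9.52%), against 15.8% of all genes. The median of replicate 2 minus replicate 1 was -0.38, against 0.20 over all genes. Of the markers in this list, Elf5, Esrrb, Wnt7b and Rhox5, added after their values were seen, were higher in the E7.5 array of replicate 1. Elf5, a transcription factor of trophoblast stem cells, was at 5.09 and 6.29 at E6.5 and at 6.60 and 3.45 at E7.5. Esrrb, a nuclear receptor of the same cells, was at 5.97 and 5.04 and then at 7.36 and 3.02, Wnt7b, a Wnt ligand, at 5.26 and 5.25 and then at 7.33 and 4.25, and Rhox5, a homeobox gene, at 8.42 and 9.98 and then at 9.77 and 7.12. The part of this tissue in the other results was not tested. Cdx2, in this list and that of the streak, was 2.21 higher (adjusted p = 0.0584). Among 13 parietal endoderm genes 1 passed, Snai1, and the median was 0.34. Lama1, a laminin chain in that list, was 2.31 higher (adjusted p = 0.0677). Of the primordial germ cell list 5 genes were tested and 0 passed. Ifitm1, which posterior mesoderm also expresses, was 4.12 higher there (adjusted p = 0.0516). The maternal blood and immune list held 5 tested genes, of which 0 passed.

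Heart genes were examined because the title of the series concerns heart development. Of 16 heart field regulators 0 passed and the median was 0.50. Tbx20, a T-box factor of heart progenitors, was at 5.26 and 6.46 and then at 7.94 and 8.55 (adjusted p = 0.108). Gata6, a zinc-finger factor of heart and endoderm, was at 4.64 and 7.80 and then at 7.68 and 8.24, and Smarcd3, a chromatin remodelling subunit of heart progenitors, was 1.82 higher. Of 13 contraction genes 0 passed, with a median of 0.18. Myl7, an atrial myosin light chain, was at 4.54 and 5.85 and then at 7.14 and 8.12 (adjusted p = 0.179). Actc1, cardiac actin, was 1.85 higher and Tnni1, a troponin, 2.18 higher, the latter with unequal differences within replicates (0.55 and 3.82).

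Genes that every cell uses gave a baseline. Over 8 housekeeping genes the median difference was 0.06, over 23 cytosolic ribosomal protein genes 0.01, over 17 glycolysis genes 0.03 and over 27 oxidative phosphorylation genes 0.05. In each of these lists 0 genes passed and 0 differed by at least 1 within both replicate numbers. Ppia, a housekeeping gene, read 11.98 and 11.99 and then 12.07 and 12.08. The same held for 17 immediate early and stress genes (median 0.01) and for 10 genes of DNA methylation and demethylation (median -0.02). Dnmt3b, the methyltransferase of the epiblast, was at 11.91 and 11.70 and then at 11.09 and 11.24 (adjusted p = 0.282), and Dnmt3a, its relative, was 1.03 lower (adjusted p = 0.142).

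Other genes that rose belonged to no list. Pcdh19, a protocadherin, went from 4.16 and 4.12 to 6.77 and 7.98 and rose by 3.24 (SE 0.34, adjusted p = 0.0391). Rbm24, an RNA-binding protein of muscle and heart precursors, rose by 3.02, Cited2, a transcriptional coregulator, by 2.77, Lhfp by 2.63, Prtg, or protogenin, an adhesion molecule of the early mesoderm and neural tube, by 2.03, Pdlim4, an actin-associated protein, by 2.01 and Dlc1 by 1.94 (adjusted p from 0.0251 to 0.0447). Of these, Cited2 was already at 7.09 and 7.36 at E6.5, Prtg at 7.96 and 8.08 and Dlc1 at 7.38 and 7.46. The Dlc1 rise was 1.21 with the mean of all kept probe sets and did not pass there (adjusted p = 0.135). Over all genes that rose, 12 of 29 had an E6.5 mean below the filter value, and 3 of the 10 that fell had an E7.5 mean below it.

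The change in GFP- cells was then compared with that in GFP+ cells over the same day, in a test of the difference of the changes. In GFP+ cells limma called 3 of 11706 genes (0.0256%), Msgn1, Hoxb2 and Lhfp, all of which also rose in GFP- cells. For the difference between fractions 0 genes passed (0%), 761 had an unadjusted p under 0.05, and the lowest adjusted p was 0.288. No gene can therefore be called particular to the GFP- cells. Of the 29 genes that rose in GFP- cells, 24 were also higher at E7.5 within both replicate numbers of GFP+ cells (26% of all genes tested were), 3 were lower in both and 2 were of mixed sign. Of the 10 that fell, 9 were also lower in both (31.7% of all genes were) and 1, Rimkla, was of mixed sign.

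Individual genes show 3 patterns in the levels. In the first, both fractions went from low to high. Aldh1a2 was at 3.52 and 3.02 in the E6.5 GFP+ arrays and at 9.0 and 10.09 in those of E7.5, and its change in GFP- minus GFP+ cells was -0.60 (SE 0.78, adjusted p = 0.936). Foxc2 and Hoxb2 behaved alike, with differences between fractions of -0.35 (SE 0.65) and 0.16 (SE 0.28). In the second, the gene was already on in GFP+ cells at E6.5. Aplnr was at 8.52 and 8.68 there and at 10.89 and 10.60 at E7.5, and its change in GFP- cells was larger by 4.09 (SE 0.34, adjusted p = 0.288). Fn1, at 10.89 and 10.67 in E6.5 GFP+ cells, changed by 2.55 more in GFP- cells (SE 0.26, adjusted p = 0.288). In the third, the fractions moved in opposite directions. Snai1 was at 10.83 and 11.09 in GFP+ cells at E6.5 and at 10.09 and 10.46 at E7.5, and Mesp1 likewise was lower at E7.5 in GFP+ and higher in GFP- cells (difference of the changes 3.15, SE 0.32, adjusted p = 0.288). None of these differences passed.

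**Figure D5:**
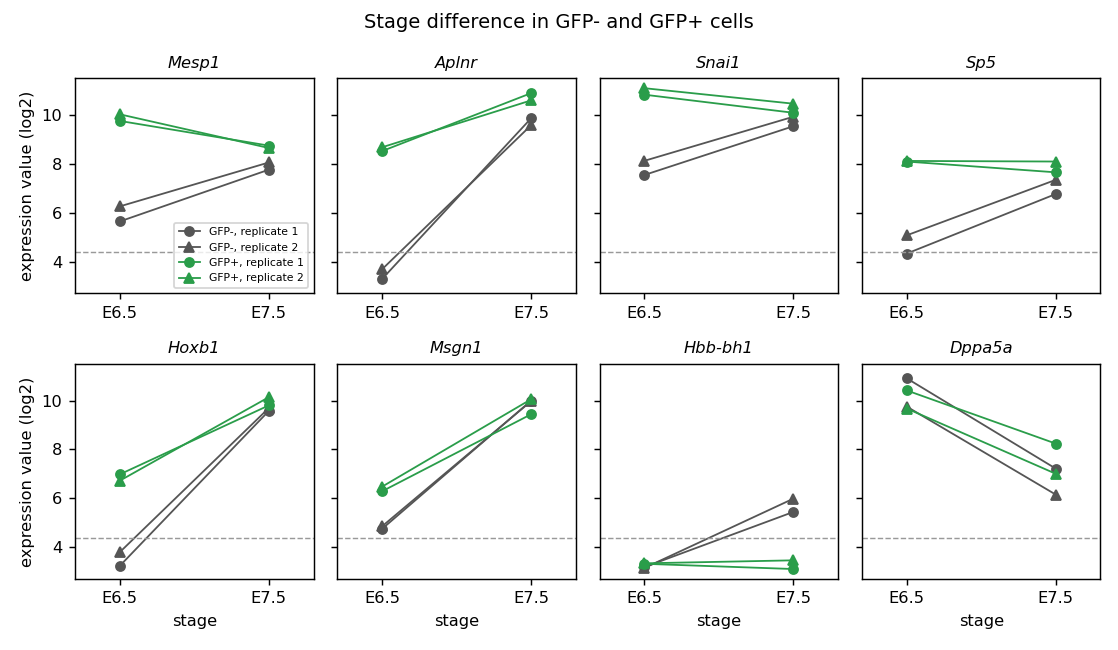
Expression value (log2, vertical axes) of 8 genes at E6.5 and E7.5 (horizontal axes) in GFP- cells (grey) and GFP+ cells (green). Each line joins the arrays of 1 replicate number, circles are replicate 1, triangles replicate 2, and the dashed line is the filter value. Aplnr, Snai1 and Sp5 are higher in GFP+ than in GFP- cells at E6.5 and closer at E7.5, Msgn1 and Hoxb1 reach about the same level in both, and Hbb-bh1 is above the filter value in GFP- cells of E7.5 only.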

How the data were processed

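The authors deposited log2 expression values, one for every probe set, made with RMA per the submitters' processing notes. Neither its version nor a genome build is given in the sources used here. Array medians were 4.20 to 4.23 for replicate 1 and 4.54 to 4.59 for replicate 2. The value distributions of arrays differed by 0.01 to 0.04 (mean over sorted values) within a number and by 0.20 to 0.26 between numbers. Whether each number was normalized by itself is not given in the sources used here. Levels of replicate 2 against replicate 1, and the filter on them, carry this offset. Within each pair of groups, arrays sharing a number deviated together from the means of their groups (r = 0.401 to 0.532 across genes), and the number entered the fit as a block.

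Of 45141 probe sets, 28898 carried 1 gene symbol in the platform annotation, 551 several, 15588 none, and 104 were controls. Those with 1 symbol were retained if 2 or more of the 8 arrays exceeded 4.38, and the probe set of highest mean stood for its gene. limma 3.58.1 (R 4.3.3; lmFit, eBayes) fitted a mean per group and the block, with 3 residual degrees of freedom, after a test on simulated data. There, 200 of 11706 genes were changed in each of 5 runs. The fit with the block recovered 18.8% of changes of 1 and 62.4% of changes of 2, with up to 12 false calls per run. Without the block it recovered 0% and 22.4%, with up to 2 false calls per run.

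Genes are named by rule: the 12 largest rises and falls past the threshold, the list members past it (up to 5) or, where fewer than 4 passed, those with the largest differences in 1 direction, and Mesp1. Some lists are given mainly by counts. The remaining genes past the threshold, list markers (Vim, Twist1, Cdh1, Pou5f1, Utf1, Otx2, Elf5, Esrrb, Wnt7b, Rhox5 and Fgf8) and those at the edge were added after their values were seen. The comparison and the gene lists were chosen with earlier results of these data known. Promoter bases are from RefSeq (GRCm38.p6). Alternatives concerned the block, arrays, filter, probe sets, scaling and spread.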

Additional observations from a re-analysis of the deposited data

Results flagged for a closer look

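Probe sets without a gene symbol of their own also changed. When all 26343 probe sets above the filter were tested together, 59 passed in GFP- cells, and 11 of these were among the 7759 with no symbol or several, 7 higher and 4 lower at E7.5. They are not named here.

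For 3 genes that rose in GFP- cells the GFP+ cells moved the other way within both replicate numbers. The difference of the changes (GFP- minus GFP+) was 2.59 for Snai1 (SE 0.26), 2.58 for Sp5 (SE 0.33) and 2.59 for Dlc1 (SE 0.29). With limma it did not pass over all genes (adjusted p = 0.288, 0.32 and 0.288). In GFP+ cells Sp5 was at 8.09 and 8.12 at E6.5 and at 7.65 and 8.09 at E7.5, and Dlc1 at 11.03 and 10.95 and then at 10.20 and 10.50.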

How the results depend on the processing

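The count of genes past the threshold depended on the model, while the signs of the 39 genes of the main fit did not. Against 39 genes (29 higher, 10 lower) with the replicate block, the fit without the replicate block called 11 (9 and 2), all of them among the 39. With only the 4 GFP- arrays, 0 passed with the block (1132 at an unadjusted p under 0.05, lowest adjusted p 0.0705) and 4 without it (4 and 0: Aplnr, Cdx1, Hoxb1 and Msgn1). The replicate number as a random block gave 136 (95 and 41), the mean of all kept probe sets 71 (52 and 19) and an intensity trend 76 (57 and 19). With the mean of all kept probe sets, Mesp1, Ccnd2, Ifitm1, Crabp1, Dlk1, Cdx2, Fgf5, Ap1m2 and Hoxa3 passed as well. Meis2, Cdh2, Ncam1, Fgfr2 and Dlc1 did not pass in that setting. Leaving out 1 array at a time gave 0 to 11 genes (0 to 10 higher, 0 to 1 lower). Other filters and scalings gave 32 to 54, among them a filter on the GFP- arrays alone, chosen after seeing the data, with 44. All 39 genes kept their sign wherever they were tested, and Aplnr and Hoxb1 passed in 16 of 20 alternatives. The 39 were picked by this same difference, and several alternatives leave the difference itself unchanged, so the kept signs are no further support. A filter at 4 of 8 arrays tested 36 of the 39, without Hbb-bh1, Foxd3 and Rimkla. For the difference between fractions, 0 genes passed in the main setting, 1 with the random block (Aplnr, adjusted p = 0.0484) and 4 with the intensity trend (Aplnr, Snai1, Fn1 and Dlc1). Spink1, which passed in no setting, turned from -2.79 to 0.39 without the GFP- E7.5 array of replicate 1 and was -5.96 without that of replicate 2. The cause of these differences was not tested. Signal near the filter value limits the size of the largest rises, and 2 arrays per group limit all calls.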

Other observations

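The arrays of replicate 1 and 2 differed in endoderm genes at E6.5 beyond what genes in general showed. Replicate 2 was at least 1 higher than replicate 1 for 17 of 23 visceral endoderm genes at E6.5 (73.9%), against 14.8% of all genes tested, and for 6 of 23 at E7.5 (26.1%), against 15.8%. The value distributions of the replicate numbers also differ as a whole. The median of replicate 2 minus replicate 1 at E6.5 was 1.47 for this list and 0.23 for all genes. Cer1, a secreted antagonist of Nodal made in anterior visceral endoderm, was at 5.49 and 9.78 in the E6.5 GFP- arrays and at 9.43 and 8.48 at E7.5. Cer1 belongs to the definitive endoderm and node, paraxial mesoderm and Nodal lists, and not to the visceral endoderm list. Gata4, a factor of endoderm and mesoderm, was at 4.45 and 7.46 and then at 7.01 and 7.71, and Dab2, an endocytic adaptor of visceral endoderm, at 7.23 and 9.81 and then at 7.12 and 8.07. In the lateral and extraembryonic mesoderm list 10 of 19 genes were at least 1 higher in replicate 2 at E6.5 (52.6%). Cer1, Gata4 and Dab2 were chosen after their values were seen, and none of these values was tested.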
